A study of Mus musculus with 6 samples.

Results

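Myosin light chains are the small calmodulin-related subunits that wrap the neck of a myosin heavy chain. Each heavy chain carries an essential light chain, which stiffens the lever arm, and a regulatory light chain, which can be phosphorylated by myosin light chain kinase. Skeletal muscle fibers use sarcomeric isoforms that come in fast, slow and embryonic types, while dividing cells, smooth muscle and fibroblasts use nonmuscle and smooth muscle isoforms for contraction of the actin cortex and stress fibers. A myoblast that leaves the cell cycle and starts to differentiate switches on sarcomeric light chain genes on top of the nonmuscle set.

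The levels of 8 myosin light chain genes, *Mylpf*, *Myl1*, *Myl4*, *Myl6b*, *Myl2*, *Myl3*, *Myl6* and *Myl9*, were examined in cultured muscle satellite cells (SCs), the stem cells of skeletal muscle. Members were taken by gene name from the 55416 genes of the deposited table, and each name matched 1 row. SCs came from the hind leg muscles of adult wild-type (WT) mice or of *Ltf* knockout (*Ltf*-KO) mice, whose every cell carries a CRISPR-Cas9 deletion in the lactoferrin gene made in C57/BL6N zygotes. By the study's methods the cells were sorted as negative for Sca1 and CD11b and positive for CD34 and α7-integrin, although the antibodies listed there are against CD31, CD45, Sca1 and α7-integrin. They were collected in medium with serum, chicken embryo extract and basic FGF, and then grown for 4 days on plates. The methods do not state the medium of these 4 days and name no treatment. Each genotype has 3 libraries, and the sources used here do not say whether these came from separate mice, nor their sex, so p-values measure the spread between these samples. Values are TPM, a transcript level corrected for gene length and scaled to a common total in each library. TPM allow levels of different genes to be set side by side, but keep no trace of sequencing depth, so the depth is unknown.

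The libraries summed to 993650 to 994356 TPM and listed 12828 to 12951 genes at 1 TPM or more. *Ltf* itself was at 0 to 0.12 TPM in the 6 libraries, near the floor in both genotypes, so its level does not check the labels. All 9 markers of SCs and myoblasts, among them *Myod1* and *Chrna1*, had a mean of at least 1 TPM, and their summed level was 2500 to 2548 TPM in WT and 2543 to 2574 TPM in *Ltf*-KO SCs. None of the 6 cardiomyocyte markers had a mean of 1 TPM, and their sum was 1.15 to 2.35 TPM in WT and 1.26 to 1.96 TPM in *Ltf*-KO SCs. Endothelial markers summed to 5.68 to 15.01 TPM and 5.83 to 13.5 TPM in these groups, and macrophage markers to 4.46 to 11.5 TPM and 3.59 to 4.69 TPM. Of 8 fibroblast and fibro-adipogenic markers, 6 had a mean of at least 1 TPM. Their sum was 100 to 106 TPM in WT and 101 to 132 TPM in *Ltf*-KO SCs, most of it from *Col3a1*, with a mean of 96.7 TPM.

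The promoter sequences of 6 members are shown because *Mylpf*, *Myl1*, *Myl4* and *Myl6b* varied together across libraries, while *Myl6* and *Myl9* did not follow them. All 8 members had a promoter window in the RefSeq table (build GRCm38.p6). Each line gives, from 5′ to 3′ on the gene's strand, the longest stretch of the 250 bases before the RefSeq start that lies outside annotated exons of GENCODE M21. Capitals mark E-boxes, the CANNTG motif that MyoD and myogenin bind and that reads the same on both strands, and the CArG box of serum response factor.
Mylpf: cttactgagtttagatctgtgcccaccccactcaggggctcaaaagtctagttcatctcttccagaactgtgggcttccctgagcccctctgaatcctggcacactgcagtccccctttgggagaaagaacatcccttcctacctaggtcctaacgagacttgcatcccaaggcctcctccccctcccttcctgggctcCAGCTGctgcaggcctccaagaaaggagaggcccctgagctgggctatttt
Myl1: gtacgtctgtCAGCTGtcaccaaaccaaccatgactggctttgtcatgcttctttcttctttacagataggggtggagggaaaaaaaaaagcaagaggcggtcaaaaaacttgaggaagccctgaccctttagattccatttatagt
Myl6b: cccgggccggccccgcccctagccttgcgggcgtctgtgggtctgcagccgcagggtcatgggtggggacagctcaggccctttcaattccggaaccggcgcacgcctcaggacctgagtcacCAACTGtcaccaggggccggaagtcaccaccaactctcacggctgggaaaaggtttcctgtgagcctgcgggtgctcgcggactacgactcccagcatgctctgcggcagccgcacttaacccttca
Myl4: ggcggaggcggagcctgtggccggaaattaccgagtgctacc
Myl6: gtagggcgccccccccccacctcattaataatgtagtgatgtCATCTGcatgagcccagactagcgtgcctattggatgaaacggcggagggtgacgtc
Myl9: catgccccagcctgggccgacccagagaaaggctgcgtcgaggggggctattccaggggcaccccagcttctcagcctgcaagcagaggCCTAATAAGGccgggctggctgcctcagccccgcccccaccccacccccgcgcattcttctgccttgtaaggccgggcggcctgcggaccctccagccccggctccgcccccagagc
These stretches are chr7:127211358-127211607 for *Mylpf* (plus strand), chr1:66945144-66945290 for *Myl1* (minus strand), chr10:128498686-128498935 for *Myl6b* (minus strand), chr11:104550621-104550662 for *Myl4* (plus strand), chr10:128493901-128493999 for *Myl6* (minus strand) and chr2:156775214-156775419 for *Myl9* (plus strand). An E-box was found in the stretches of *Mylpf*, *Myl1*, *Myl6b* and *Myl6*, and 66.2% of all 32851 promoter windows hold one in their 250 upstream bases. The E-boxes of *Mylpf* and *Myl1* read CAGCTG, which 13.001% of all windows hold, and those of *Myl6b* and *Myl6* do not. The CAGCTG motif is part of the count for CANNTG. Windows of *Myl2* and *Myl3*, not shown, hold E-boxes as well, and a window of *Myl2* holds CAGCTG. The *Myl9* stretch holds a CArG box, present in 1.47% of all windows. The window of *Myl3* and that of a second RefSeq start of *Myl6*, neither shown, hold a CArG box as well. The *Myl4* stretch holds neither motif, but it is only 42 bases long because exons of the neighboring gene *Cdc27* lie upstream. These are matches of letters and not measured binding sites.

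The 8 members spanned a wide range of levels in the same cells. Ordered by mean TPM over the 6 libraries, they ran *Myl6* (1780.5), *Mylpf* (1041), *Myl1* (241), *Myl4* (226), *Myl9* (52.7), *Myl6b* (44.97), *Myl2* (0.65) and *Myl3* (0.39). Of the 7 neighboring steps in this order, 4 had the upper gene above the lower one in all 6 libraries without any overlap of their ranges. The steps that did not separate were *Myl1* over *Myl4*, with *Myl1* higher in 5 of 6 libraries, *Myl9* over *Myl6b*, higher in 5 of 6, and *Myl2* over *Myl3*, higher in 4 of 6. The 2 members used by slow fibers and heart ventricle were thus the only ones below 1 TPM on average.

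**Figure D1:**
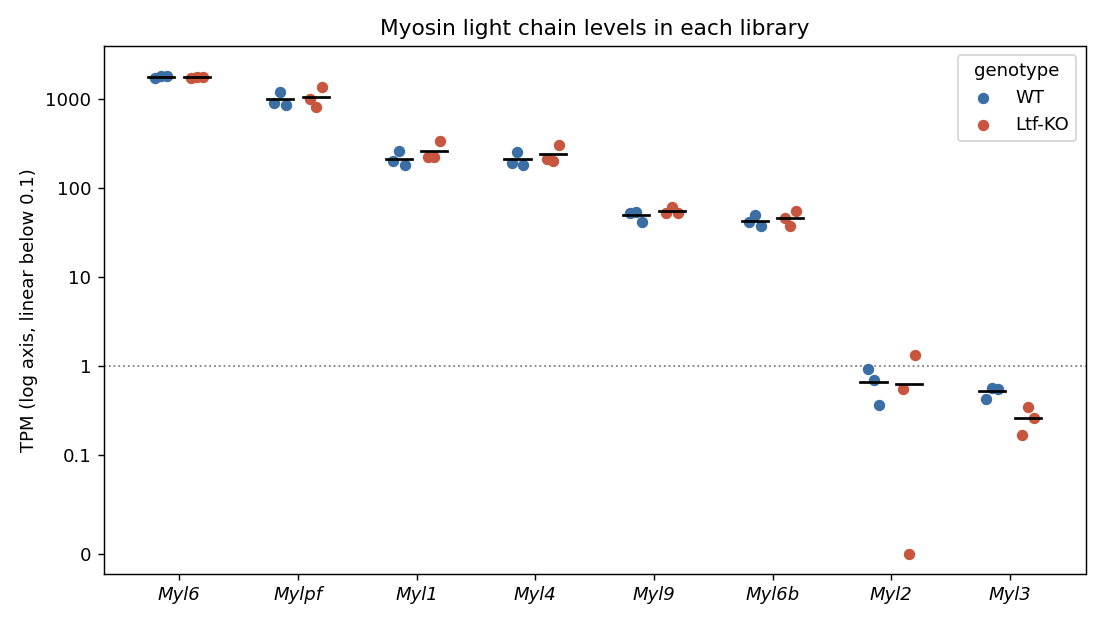
TPM of the 8 myosin light chain genes in each library (log axis, linear below 0.1), with 3 WT and 3 *Ltf*-KO points per gene and black bars at the group means. The dotted line marks 1 TPM: *Myl6*, *Mylpf*, *Myl1*, *Myl4*, *Myl9* and *Myl6b* lie above it in every library, and the genotypes overlap for each of these 6 genes.

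*Mylpf* (ENSMUSG00000030672, chromosome 7 of GRCm38 from 127208890 to 127214298) encodes the fast skeletal regulatory light chain and was the most abundant sarcomeric member. It was at 921, 1222 and 875 TPM in WT replicates 1 to 3 and at 1011, 822 and 1396 TPM in *Ltf*-KO replicates 1 to 3. *Ltf*-KO replicate 3 was the highest and *Ltf*-KO replicate 2 the lowest of the 6 libraries, so the *Ltf*-KO values enclosed all WT values. The WT mean was 1006 ± 188 TPM (SD, n = 3), and the *Ltf*-KO mean 1077 ± 293 TPM (SD, n = 3).

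*Myl1* (ENSMUSG00000061816, chromosome 1 from 66924295 to 66945404) encodes the fast skeletal essential light chains, a long and a short form started from separate promoters that the deposited value sums. It was at 202, 263 and 182 TPM in WT and at 228, 227 and 343 TPM in *Ltf*-KO replicates 1 to 3. The highest value was again in *Ltf*-KO replicate 3, WT replicate 2 lay above the other *Ltf*-KO libraries, and the groups overlapped. Group means were 216 ± 41.7 TPM (SD, n = 3) and 266 ± 66.7 TPM (SD, n = 3). Of its stretches of 50 bases, 16% also occur in the pseudogene *Mylf-ps*, so a part of its reads could be split between these loci.

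*Myl4* (ENSMUSG00000061086, chromosome 11 from 104550663 to 104595753) encodes the embryonic and atrial essential light chain, which developing and regenerating skeletal muscle uses. It was at 195, 255 and 184 TPM in WT and at 215, 203 and 306 TPM in *Ltf*-KO replicates 1 to 3, almost the level of *Myl1*. The order of the libraries was the same as for *Myl1* in all 6 positions, from *Ltf*-KO replicate 3 and WT replicate 2 at the top to WT replicate 3 at the bottom. Group means were 212 ± 38.3 TPM (SD, n = 3) and 241 ± 56.5 TPM (SD, n = 3).

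*Myl6b* (ENSMUSG00000039824, chromosome 10 from 128494157 to 128498685) encodes an essential light chain of slow muscle that nonmuscle cells also use. It was at 41.8, 50.4 and 38.2 TPM in WT and at 46.04, 37.5 and 55.9 TPM in *Ltf*-KO replicates 1 to 3. Its libraries ranked as those of *Mylpf* did in all 6 positions, and the genotypes overlapped. It is the neighbor of *Myl6* on the same strand, with 11 bases between the annotated genes, but did not share the flat profile of *Myl6*.

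*Myl6* (ENSMUSG00000090841, chromosome 10 from 128490860 to 128494145) encodes the essential light chain of nonmuscle and smooth muscle myosin and was the most abundant member in every library. It was at 1724, 1819.8 and 1821 TPM in WT and at 1748, 1789 and 1782 TPM in *Ltf*-KO replicates 1 to 3. The highest library was 1.06-fold above the lowest, and the *Ltf*-KO values lay inside the WT range. Of its stretches of 50 bases, 16.7% also occur in transcripts of 5 other genes, mostly in the predicted gene *Gm5526* (13.1%).

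*Myl9* (ENSMUSG00000067818, chromosome 2 from 156775420 to 156781658) encodes a regulatory light chain of smooth muscle and nonmuscle myosin. It was at 53.01, 54.6 and 41.9 TPM in WT and at 53.3, 61.4 and 52.2 TPM in *Ltf*-KO replicates 1 to 3. Here the highest library was *Ltf*-KO replicate 2, the lowest for *Mylpf* and *Myl6b*, and WT replicate 3 stood below the other 5 libraries. Of 10 smooth muscle and pericyte markers, 6 had a mean of at least 1 TPM, led by *Acta2*, and their sum was 551 to 639 TPM in WT and 629 to 749 TPM in *Ltf*-KO SCs, while *Myh11*, the smooth muscle myosin heavy chain, was at 0.17 to 0.62 TPM. These markers did not share a highest library: it was *Ltf*-KO replicate 2 for *Tagln*, *Cspg4*, *Pdgfrb* and *Myh11*, *Ltf*-KO replicate 3 for *Acta2*, *Smtn* and *Rgs5*, WT replicate 1 for *Notch3* and *Cnn1*, and WT replicate 3 for *Kcnj8*. *Tagln*, an actin-binding protein of smooth muscle, was at 59.5 to 60.8 TPM in WT and 66.04 to 83.8 TPM in *Ltf*-KO SCs (limma unadjusted p = 0.028, adjusted p = 0.999). *Pdgfrb*, a receptor of pericytes, was at 3.73 to 4.71 TPM in WT and 4.8 to 7.51 TPM in *Ltf*-KO SCs (limma unadjusted p = 0.017, adjusted p = 0.999). Neither gene's groups overlapped, nor did those of *Rgs5* at 0.12 to 0.46 TPM, beside 8.46% of all genes averaging 1 TPM or more. *Cnn1* and *Kcnj8* had lower means in *Ltf*-KO than in WT SCs (0.51 against 1.40 TPM and 0.037 against 0.097 TPM), with overlapping groups. The other markers of this list had higher means in *Ltf*-KO SCs. The part of such cells in the level of *Myl9* was not tested.

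*Myl2* (ENSMUSG00000013936, chromosome 5 from 122100951 to 122113472) and *Myl3* (ENSMUSG00000059741, chromosome 9 from 110741861 to 110769798) encode the regulatory and the essential light chain of slow fibers and the heart ventricle. *Myl2* was at 0.93, 0.7 and 0.37 TPM in WT and at 0.56, 0 and 1.32 TPM in *Ltf*-KO replicates 1 to 3, with both extremes among the *Ltf*-KO libraries. *Myl3* was at 0.43, 0.57 and 0.56 TPM in WT and at 0.17, 0.35 and 0.26 TPM in *Ltf*-KO replicates 1 to 3. Its groups did not overlap, with the *Ltf*-KO libraries lower. Neither did those of 8.46% of the 12956 genes averaging 1 TPM or more, with *Ltf*-KO higher for 4.73% of the genes and lower for the rest of the share. The share among genes at the low level of *Myl3* was not counted. *Myl2* and *Myl3* both averaged under 1 TPM and stayed outside the fit across genes. A two-sided exact permutation test of the difference of the means gave p = 0.1 for *Myl3*, the smallest value that 3 libraries against 3 allow, and p = 1 for *Myl2*. Of the 50-base stretches of *Myl3*, 4.19% also occur in transcripts of *Pth1r*.

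The isoforms took unequal shares of each kind of light chain. Among the essential light chains *Myl1*, *Myl3*, *Myl4*, *Myl6* and *Myl6b*, *Myl6* made up 79.2 ± 2.83% (SD, n = 3) of the summed TPM in WT and 76.4 ± 4.12% (SD, n = 3) in *Ltf*-KO SCs. The sarcomeric isoforms, *Myl1*, *Myl3*, *Myl4* and *Myl6b* together, made up 20.3%, 23.8% and 18.2% in WT and 21.9%, 20.7% and 28.4% in *Ltf*-KO replicates 1 to 3. For the regulatory light chains the sum was taken over *Mylpf*, *Myl2*, *Myl9* and the 4 other light chain genes of the table, *Myl7*, *Myl10*, *Myl12a* and *Myl12b*. *Mylpf* made up 51.7 ± 3.82% (SD, n = 3) of it in WT and 52.006 ± 6.61% (SD, n = 3) in *Ltf*-KO SCs, and the nonmuscle gene *Myl12a* 43.2 ± 3.65% (SD, n = 3) and 42.5 ± 5.14% (SD, n = 3). On the regulatory side a sarcomeric isoform was thus about level with the nonmuscle ones, while on the essential side the nonmuscle isoform led in every library. *Myl9* was a minor part of the regulatory pool, at 2.21 to 3.44% of it.

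**Figure D2:**
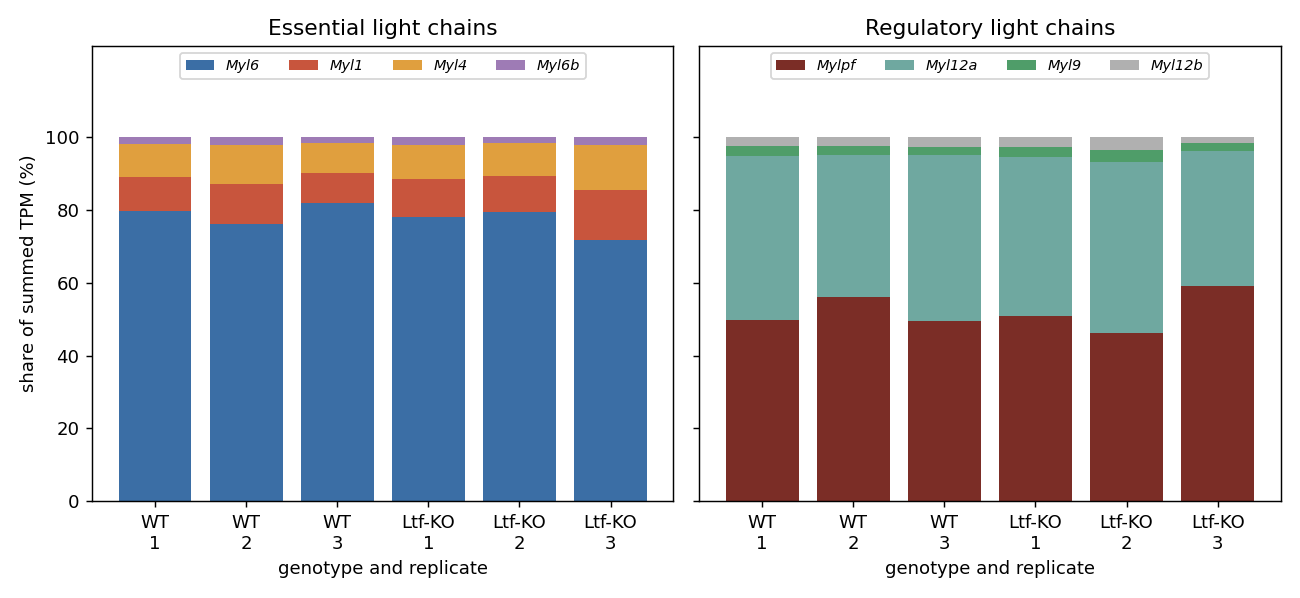
Share of each isoform in the summed TPM of the essential (left) and regulatory (right) light chains, 1 bar per library with genotype and replicate number below it. *Myl6* fills 71.6 to 81.8% of the essential bars and *Mylpf* 46.1 to 59.1% of the regulatory bars, and *Ltf*-KO replicate 3 has the largest sarcomeric share on both sides.

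The other light chain genes completed the picture. *Myl12a* was at 808 to 849 TPM in WT and 838 to 871 TPM in *Ltf*-KO SCs, and *Myl12b* at 44.97 to 50.4 TPM and 40.2 to 63.1 TPM. Of the 50-base stretches of *Myl12a*, 18.8% also occur in *Myl12b*, so a part of its reads could be split between these nonmuscle genes. *Myl7*, the atrial regulatory light chain, was at 0.18 TPM in WT replicate 3 and at 0 in the other libraries. *Myl10* was at 0.14 and 0.18 TPM in WT replicates 2 and 3 and at 0 in the other libraries.

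To ask whether loss of *Ltf* changed light chain RNA, *Ltf*-KO was compared with WT on log2(TPM + 1) by limma across the 12956 genes that averaged 1 TPM or more, with Benjamini-Hochberg adjustment over those genes. This scale understates the changes of genes with low TPM. Of the 6 members tested, 0 passed an adjusted p of 0.05 and 0 an unadjusted one, and of all tested genes 0% and 3.78% did. The 490 genes at an unadjusted p under 0.05 were 260 higher (2.01%) and 230 lower (1.78%) in *Ltf*-KO SCs. With quantile normalization 203 were higher and 305 lower, with median-of-ratios scaling 213 and 289. Means on the log2 scale were above WT for 5 of the 6 tested members, as for 55.7% of all tested genes, and the median log2 fold change of the members was 0.12, beside 0.011 for all tested genes. The members do not vary independently of each other.

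The size of the differences stayed within the spread of the libraries. *Myl1* had the highest log2 fold change of the members, 0.29 (standard error 0.2, 95% confidence interval -0.19 to 0.77, limma unadjusted p = 0.19, adjusted p = 0.999), or 0.88-fold to 1.7-fold on this scale. *Myl4* was at 0.18 (95% confidence interval -0.27 to 0.62) and *Mylpf* at 0.079 (-0.43 to 0.59). *Myl6b* was at 0.086 (-0.30 to 0.47) and *Myl9* at 0.16 (-0.11 to 0.44). Among these 5 genes the upper ends of the intervals were a rise of about 1.35-fold to 1.7-fold. The lower ends were a fall to between 0.74-fold (*Mylpf*) and 0.93-fold (*Myl9*), and all include no change. A moderate difference between the genotypes in either direction was thus not resolved with 3 libraries each. The interval of *Myl6* was much narrower, with a log2 fold change of -0.012 (-0.085 to 0.062), or 0.943-fold to 1.04-fold. The direction of *Mylpf*, *Myl4* and *Myl6b* rested on *Ltf*-KO replicate 3: without it their log2 fold changes were -0.13, -0.0058 and -0.053. Without WT replicate 3, *Mylpf* was at -0.013 and *Myl6b* at -0.00065. *Myl1* was at 0.093 without *Ltf*-KO replicate 3 and at 0.44 without WT replicate 2, and *Myl9* at 0.045 without WT replicate 3 and 0.23 without WT replicate 2. *Myl6* changed sign with quantile normalization (0.0026) and without WT replicate 2 (0.0011) or WT replicate 3 (0.0015).

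**Figure D3:**
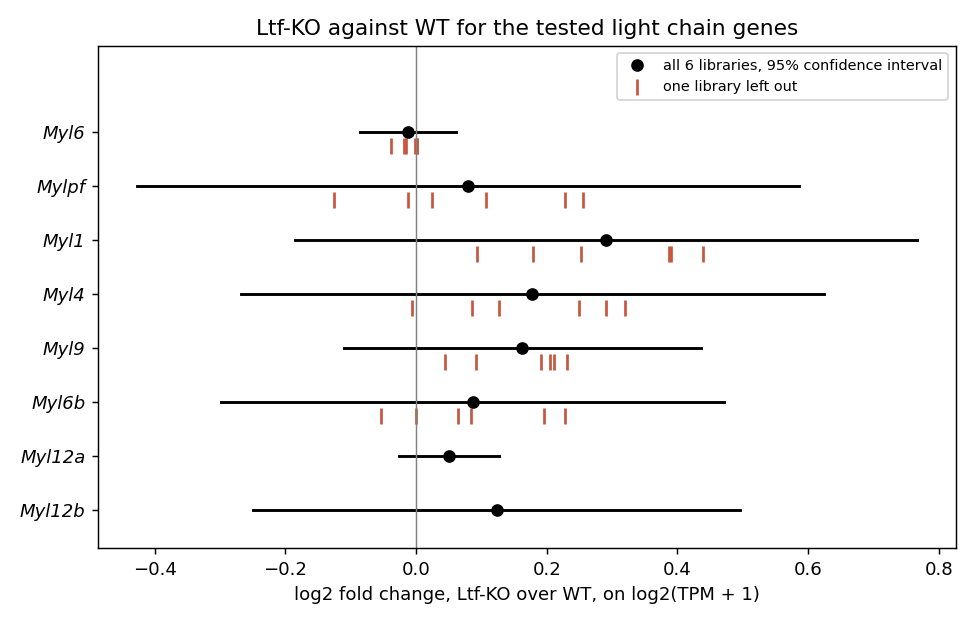
Log2 fold change of *Ltf*-KO over WT on the log2(TPM + 1) scale for the 6 tested members and for *Myl12a* and *Myl12b*, with 95% confidence intervals from limma, and for the members red ticks for the 6 fits that each left out 1 library. Every interval includes 0, that of *Myl6* is the narrowest among the members, and the ticks of *Mylpf*, *Myl4*, *Myl6b* and *Myl6* fall on both sides of 0.

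Several members spread widely between libraries of the same genotype. The coefficient of variation of *Mylpf* was 18.7% in WT and 27.2% in *Ltf*-KO SCs, that of *Myl1* 19.3% and 25.1%, and that of *Myl4* 18.1% and 23.4%. It was 14.4% and 19.8% for *Myl6b*, 13.8% and 8.98% for *Myl9*, and 6.07% and 22.1% for the nonmuscle gene *Myl12b*. The median over the 6681 genes averaging 10 to 100 TPM, as *Myl6b*, *Myl9* and *Myl12b* do, was 5.58% in WT and 5.85% in *Ltf*-KO SCs. Over the 1391 genes averaging 100 TPM or more the median was 3.42% in WT and 3.55% in *Ltf*-KO SCs. Of these 1391 genes, 1.29% had a larger coefficient than *Mylpf* in *Ltf*-KO and 2.44% in WT SCs. *Myl6* was at 3.12% and 1.24%, and 53.7% and 91.7% of these genes had a larger coefficient. *Mylpf*, *Myl1*, *Myl4* and *Myl6b* all had their highest value in *Ltf*-KO replicate 3, the next in WT replicate 2 and the third in *Ltf*-KO replicate 1. Summed, these 4 genes were at 1360 TPM, 1790.2 TPM and 1280 TPM in WT and 1499.6 TPM, 1289.9 TPM and 2101 TPM in *Ltf*-KO replicates 1 to 3. WT replicate 2 and *Ltf*-KO replicate 3 thus stood above the rest, and the lowest sums of the genotypes were nearly level.

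**Figure D4:**
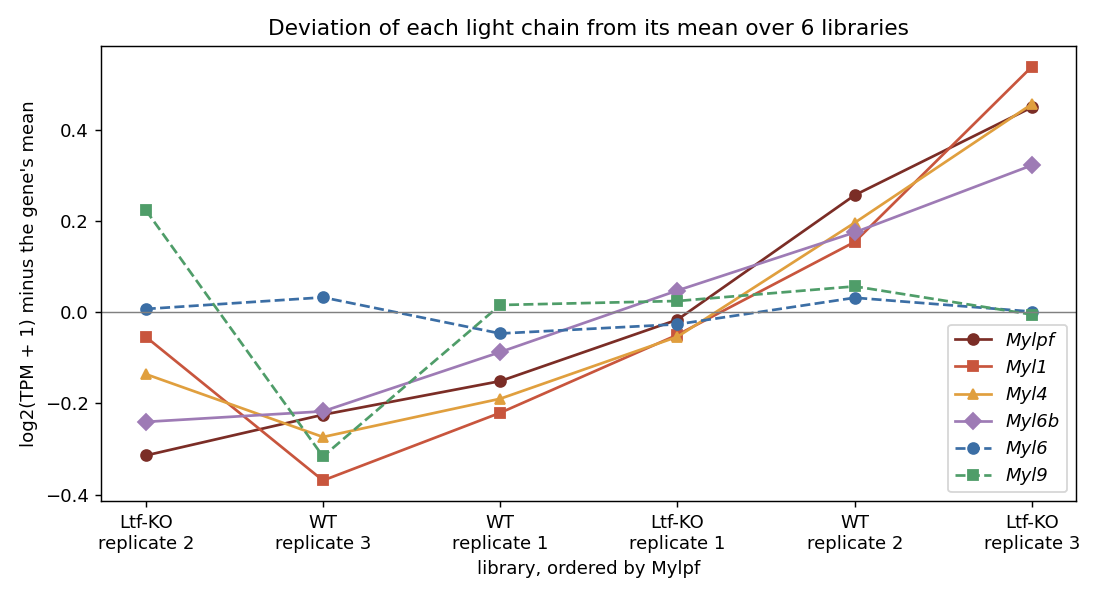
Deviation of each tested member from its own mean over the 6 libraries on the log2(TPM + 1) scale, with libraries ordered by their *Mylpf* value and lines joining the points of a gene. *Mylpf*, *Myl1*, *Myl4* and *Myl6b* (solid) have their 3 highest values in the same libraries and reach their top in *Ltf*-KO replicate 3, while *Myl6* (dashed) stays near 0 and *Myl9* (dashed) peaks in *Ltf*-KO replicate 2.

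The same libraries were high for other muscle genes. *Ltf*-KO replicate 3 and WT replicate 2 were the 2 highest libraries for 9.11% of the 8072 genes averaging 10 TPM or more, a pattern looked for after the members' values were seen. It held for 4 of the 6 members at that level, for 10 of 11 sarcomeric thin filament genes, with *Neb* the exception, and for 7 of 7 markers of differentiating myocytes at that level. *Acta1*, *Tnnt3* and *Tnnc2* are in both of these lists. The thin filament gene *Nebl* and the myocyte marker *Ckm* averaged under 10 TPM and did not show the pattern. The pattern also held for 4 of 9 markers of SCs and myoblasts (*Des*, *Cdh15*, *Itga7* and *Vcam1*). It held for 5 of 11 transcription factors and cofactors of light chain genes, among them *Myog*, which is also a myocyte marker here. *Myog*, which encodes the myogenic factor myogenin, was at 319, 410 and 293 TPM in WT and 360 TPM, 266 TPM and 508 TPM in *Ltf*-KO replicates 1 to 3. Its libraries thus ranked as those of *Mylpf* and *Myl6b* did. The 8 markers of differentiating myocytes summed to 1621 to 2182 TPM in WT and 1673 to 2569 TPM in *Ltf*-KO SCs. *Myod1*, which dividing myoblasts already express, was at 748 to 816 TPM in WT and 753 to 812 TPM in *Ltf*-KO SCs. WT replicate 2 and *Ltf*-KO replicate 3 were its 2 lowest libraries. The same held for *Myf5* and *Chrna1*, but not for *Pax7* and *Sdc4*. The highest library was only 1.09-fold above the lowest for *Myod1*, 1.21-fold for *Myf5* and 1.03-fold for *Chrna1*. The share of all genes with these libraries lowest was not counted. In bulk RNA, more differentiating cells and more of this RNA per cell cannot be told apart, and the part of either in the light chain values was not tested.

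The genes with the profile most like *Myl1* were found by the root mean square difference of log2(TPM + 1), centered on each gene's mean, over the 6 libraries, among the other 8071 genes averaging 10 TPM or more. *Myl4* ranked 2 with a difference of 0.065, *Mylpf* ranked 28 (0.14) and *Myl6b* 41 (0.15), while *Myl9* ranked 1813 (0.27) and *Myl6* 3007 (0.29), and the median of all these genes was 0.30. The 5 nearest genes outside the family were *Gchfr* (0.062), the feedback regulator of GTP cyclohydrolase, *Klhl41* (0.083), a kelch protein of the sarcomere, *Cav3* (0.09), the muscle caveolin, *Deaf1* (0.094), a transcription factor, and *Cacng1* (0.095), a subunit of the skeletal muscle calcium channel. *Cacng1* was at 52.8, 66.7 and 50.1 TPM in WT and 60.4, 55.7 and 76.9 TPM in *Ltf*-KO replicates 1 to 3.

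The ratios between *Mylpf*, *Myl1*, *Myl4* and *Myl6b* varied less than their levels. These ratios were examined after the levels were seen and are given without a test. *Myl1* was at 22%, 21.5% and 20.9% of the *Mylpf* level in WT and at 22.5%, 27.6% and 24.6% in *Ltf*-KO replicates 1 to 3. The ratio was higher in each *Ltf*-KO library than in any WT library, as was that of *Myl4* to *Mylpf*, at 20.9 to 21.2% in WT and 21.2 to 24.7% in *Ltf*-KO SCs, by a narrow gap. Of all tested genes, 1.33% had ratios to *Mylpf* that did not overlap between the genotypes, beside 8.46% for the levels themselves. *Mylpf* varied widely within each genotype, so ratios of genes that do not vary with it tend to overlap. Neither this share nor that for *Myl1* below tells how often genes that vary with the divisor separate, which was not counted. *Myl6b* was at 4.12 to 4.54% of *Mylpf* in WT and 4.003 to 4.56% in *Ltf*-KO SCs, and the genotypes overlapped. *Myl4* was at 96.5%, 97.3% and 100.9% of *Myl1* in WT and 94.2%, 89.2% and 89.2% in *Ltf*-KO replicates 1 to 3, lower in each *Ltf*-KO library, where 4.04% of all tested genes had ratios to *Myl1* that did not overlap. With 3 libraries against 3 such a separation cannot reach a p under 0.1 by permutation.

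Heavy chains and thin filaments, the partners of the light chains, had no gene past the test between the genotypes. Of 9 sarcomeric myosin heavy chain genes 4 could be tested, of which 0 had an unadjusted p under 0.05, with a median log2 fold change of 0.16, which was -0.033 with *Ltf*-KO replicate 3 left out and 0.0029 with WT replicate 3 left out. *Myh3*, the embryonic heavy chain, led them with 108.5, 148 and 88.9 TPM in WT and 121, 99.3 and 159 TPM in *Ltf*-KO replicates 1 to 3, followed by *Myh1* (19.6 to 40.01 TPM) and *Myh8* (3.12 to 8.36 TPM). *Myh3* was thus highest in the libraries in which *Myl1* and *Mylpf* were highest. Of the 4 nonmuscle and smooth muscle heavy chain genes 2 were tested and 0 had an unadjusted p under 0.05, with *Myh9* at 342 to 373 TPM and *Myh10* at 41.5 to 47.1 TPM, and *Myh14* was not tested at a mean of 0.57 TPM. Of the 12 sarcomeric thin filament genes, all tested, 0 had an unadjusted p under 0.05 and 11 had a log2 fold change above 0, with a median of 0.12, which was -0.033 and 0.016 in these settings. *Acta1*, skeletal actin, was at 844 to 1065 TPM in WT and 909 to 1243 TPM in *Ltf*-KO SCs, *Tnnc1*, slow troponin C, at 392 to 510 TPM and 415 to 609 TPM, and *Tpm2*, a tropomyosin, at 405 to 486 TPM and 421 to 537.5 TPM.

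The enzymes that act on regulatory light chains and the transcription factors known to act on light chain genes had no gene past the test either. Of 16 kinase, phosphatase and calmodulin genes 13 were tested and 0 had an unadjusted p under 0.05, with a median log2 fold change of 0.036. Abundant among them were *Calm2*, which encodes calmodulin, at 686 to 764 TPM, and *Ppp1r14b*, an inhibitor of protein phosphatase, at 607 to 648 TPM. Among the kinases, named after their values were seen, *Mylk2* of skeletal muscle was at 9.64 to 12.5 TPM, *Mylk4* at 17.5 to 21.4 TPM and *Mylk* of smooth muscle at 0.53, 0.76 and 0.95 TPM in WT and 0.99, 1.24 and 1.15 TPM in *Ltf*-KO replicates 1 to 3. The *Mylk* groups did not overlap, by the narrow gap between 0.95 and 0.99 TPM. Neither did those of 8.46% of the genes averaging 1 TPM or more, with *Ltf*-KO higher for 4.73%. At a mean of 0.94 TPM *Mylk* was not in the fit, and the share among genes at its level was not counted. Of 13 transcription factors and cofactors, all tested, 0 had an unadjusted p under 0.05, with a median log2 fold change of 0.048. *Myod1*, *Myog* and *Myf5* were the most abundant of them, and *Myf5*, a factor of SCs and early myoblasts, was at 121 to 126 TPM in WT and 109 to 133 TPM in *Ltf*-KO SCs.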

How the data were processed

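RNA from 6 cultures of SCs (3 WT, 3 *Ltf*-KO, day 4) was sequenced, and the authors deposited TPM values, normalized per gene length and library, with 2 decimals. The study's methods refer to the sequencing company's protocol for normalization. The submitters' processing notes name the build GRCm39, and the aligner, counting tool and annotation are not given in the sources used here. Promoters and gene coordinates shown are on GRCm38 (RefSeq, GENCODE M21) and were not converted. The unit was taken from the values. TPM keep no depth, so tests that need read counts and counting intervals were not used.

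Groups and replicate numbers were taken from the sample labels. limma 3.58.1 (R 4.3.3, lmFit, eBayes with a trend) was fitted to log2(TPM + 1) of genes averaging 1 TPM or more, two-sided, with Benjamini-Hochberg adjustment and a threshold of 0.05, and was tested on simulated data. Permutation tests used scipy 1.17.1. Alternatives were a pseudocount of 0.1, no filter, a minimum mean of 10 TPM, quantile normalization, median-of-ratios scaling, no trend, the replicate number as a block and leaving out each library, with the filter reapplied. Stretches shared between genes were counted as distinct 50-base stretches of GENCODE M21 protein-coding transcripts of a gene found in any transcript of another gene on either strand. Members and gene lists were chosen with earlier results of these data known. Named were the 8 members, *Ltf*, the other light chain genes, the 3 most abundant genes of each further list with any gene at an unadjusted p under 0.05, the 5 genes most like *Myl1*, and markers that touch a result. 1 gene that this rule names is not reported here.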

Additional observations from a re-analysis of the deposited data

How the results depend on the processing

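With no library left out, 0 genes and 0 members had a limma adjusted p under 0.05 under any of the 7 alternatives run. With 1 library left out, between 0 and 7 genes were called (7 without WT replicate 2, 6 when *Ltf*-KO replicate 1 was left out, 3 for *Ltf*-KO replicate 3, 2 for *Ltf*-KO replicate 2, 2 for WT replicate 3 and 0 for WT replicate 1), and 0 members and 0 list genes in any of these fits. The adjusted p of the members ranged from 0.946 to 0.99986 over all fits. At an unadjusted p under 0.05 there were 490 of 12956 tested genes. There were 890 of 26553 with no filter and 281 of 8072 with a minimum mean of 10 TPM, settings that change how many genes are tested. With no filter *Myl3* was at -0.27 (limma unadjusted p = 0.015, adjusted p = 0.946). With 1 library left out, log2 fold changes ranged from -0.13 to 0.26 for *Mylpf*, 0.093 to 0.44 for *Myl1*, -0.0058 to 0.32 for *Myl4*, -0.053 to 0.23 for *Myl6b*, -0.038 to 0.0015 for *Myl6* and 0.045 to 0.23 for *Myl9*. *Myl6* was at 0.0026 with quantile normalization. The cause was not tested. The differences of the mean TPM ranged from -0.39 to 0.27 for *Myl2* and from -0.31 to -0.22 for *Myl3*. The number of level steps that held in every library was 4, and 4 to 5 with 1 library left out.

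Same-numbered libraries of the genotypes deviated from their group means with correlations of -0.041, -0.058 and -0.088 across genes, so no shared deviation was seen. The labels do not say whether same-numbered cultures were prepared together, and these correlations cannot decide it. With the replicate block, 0 genes passed after adjustment, 380 were at an unadjusted p under 0.05, and 0 members were in either set. TPM hide the depth of the libraries, so the precision of *Myl2* and *Myl3* under 1 TPM is not known.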
